A study of Mus musculus with 6 samples.

Results

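Mucins are large glycoproteins with long stretches of serine and threonine that carry O-linked sugars, and they coat the surface that an embryo meets in the uterus. The genes described here are 8 mucins of that lining: the membrane-bound *Muc1*, *Muc4*, *Muc13*, *Muc15* and *Muc20*, the secreted gel-forming *Muc5b* and *Muc6*, and the sialomucin *Cd164*. They were chosen by name, with earlier results of these data known, and looked up on the arrays through the RefSeq accession of each probe. Of the 8 genes, 7 had a matched probe and 6 were bright enough to test, among 14847 genes tested in all. *Muc6* had no matched probe and was not analysed here.

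RNA came from whole uteri of female mice at gestation day (GD) 3.5, just before implantation, with the embryos flushed out. The females were 8 to 10 weeks old when mated and were taken 3 days after the plug. Controls were 3 mice labelled Sox17 f/f, in which both copies of *Sox17* carry sites for recombination, written Sox17f/f below. The other group was 3 mice labelled LtfiCre/+ Sox17 f/f, written Sox17ed/ed below, which carry the same floxed alleles and 1 copy of an iCre recombinase driven by the lactoferrin gene. That driver acts in the uterine epithelium of adult females, so the other cells of the uterus keep *Sox17*. *Sox17* encodes an SRY-box transcription factor of the uterine epithelium, and the comparison asks which transcripts differ when the epithelium lacks it. Every mouse was measured on 1 Agilent array, and values are quantile-normalized log2 signals, so that a difference of 1 is a doubling.

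A membrane mucin spans the cell surface with a short cytoplasmic tail, and its glycosylated outer part can be cut off by proteases of the ADAM and MMP families. Gel-forming mucins are instead secreted and linked into polymers. In the mouse, *Muc1* is known to decline in the luminal epithelium as the uterus becomes receptive, and its outer part is regarded as a barrier to attachment. Progesterone and oestrogen both act on mucin expression in the reproductive tract.

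To place the values beside the genes' own sequence, the promoter windows of *Muc1*, *Muc4* and *Muc20*, which rose, and of *Cd164*, which did not change detectably, are shown. Each window runs from 250 bases before to 50 bases after the start in RefSeq, build GRCm38.p6, and is written 5′ to 3′ on the gene's strand. The windows are chr3:89228806-89229105 (+) for *Muc1*, chr16:32735636-32735935 (+) for *Muc4*, chr16:32797386-32797685 (-) for *Muc20* and chr10:41519250-41519549 (+) for *Cd164*. Capitals mark a TATA box, a SOX core motif, an oestrogen response element half-site or a forkhead motif.
Muc1: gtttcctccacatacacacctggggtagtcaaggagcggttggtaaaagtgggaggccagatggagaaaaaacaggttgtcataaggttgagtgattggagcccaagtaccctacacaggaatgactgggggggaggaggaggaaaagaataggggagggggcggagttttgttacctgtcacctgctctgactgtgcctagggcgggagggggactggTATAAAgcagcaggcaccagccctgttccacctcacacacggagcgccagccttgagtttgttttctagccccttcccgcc
Muc4: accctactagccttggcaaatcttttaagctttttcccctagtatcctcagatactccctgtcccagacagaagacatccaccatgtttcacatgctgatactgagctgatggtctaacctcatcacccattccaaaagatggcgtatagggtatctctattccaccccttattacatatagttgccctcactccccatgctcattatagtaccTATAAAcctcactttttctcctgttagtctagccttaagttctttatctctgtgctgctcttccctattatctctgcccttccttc
Muc20: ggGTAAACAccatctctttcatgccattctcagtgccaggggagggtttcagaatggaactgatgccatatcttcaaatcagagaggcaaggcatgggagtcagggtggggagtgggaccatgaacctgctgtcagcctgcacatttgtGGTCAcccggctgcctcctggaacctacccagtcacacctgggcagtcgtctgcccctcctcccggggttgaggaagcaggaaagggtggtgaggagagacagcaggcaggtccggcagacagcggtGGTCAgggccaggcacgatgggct
Cd164: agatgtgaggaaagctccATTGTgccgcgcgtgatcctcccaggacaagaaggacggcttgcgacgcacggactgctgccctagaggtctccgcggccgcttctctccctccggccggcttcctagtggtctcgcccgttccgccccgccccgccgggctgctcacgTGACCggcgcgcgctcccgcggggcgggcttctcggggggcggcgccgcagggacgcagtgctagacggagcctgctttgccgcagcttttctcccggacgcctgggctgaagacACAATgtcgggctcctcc

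The letters searched were TATAAA on the gene's strand and, on both strands, ACAAT for the SOX core, GGTCA for the half-site, GGTCANNNTGACC for the full oestrogen response element, TGTTTAC for forkhead factors and GGGCGG for a GC box. The full element contains the half-site, and no other pair of these motifs contains one another. *Muc1* had a TATA box 31 bases before its start and GC boxes at 91 and 49 bases before it. *Muc4* had a TATA box 36 bases before its start and none of the other motifs. *Muc20* had no TATA box, but held half-sites 101 bases before and 26 bases after its start and a forkhead match 248 bases before it. *Cd164* held SOX cores 232 bases before and 32 bases after its start, a half-site 83 bases before it and 4 GC boxes. *Muc13*, not called and not shown, held half-sites 238 and 25 bases before and 12 bases after its earlier start. Its later start had them 234, 144 and 89 bases before it. The *Muc6* window, also not shown, held none of the motifs. *Muc5b*, which rose, and *Muc15* had no window in the promoter set used. Among 32851 mouse promoter windows of the same length, 8.32% held the TATA box, 31.0% the SOX core, 40.5% the half-site, 0.07% the full element, 3.65% the forkhead motif and 35.7% the GC box. The GC content was 55.7% for *Muc1*, 43.7% for *Muc4*, 59.3% for *Muc20* and 70.0% for *Cd164*, with a median of 52.7% over all windows. These matches describe the letters in the windows; binding was not analysed here.

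The array data were even within each genotype. All 6 arrays lay on 1 slide, with each genotype in its own row of the slide, so slide position and genotype cannot be told apart. Between 60.7% and 65.7% of spots exceeded background clearly in Sox17f/f mice, and between 56.8% and 59.4% in Sox17ed/ed mice, and no spot was saturated. Correlations across tested genes (1 probe each) were 0.990 to 0.995 within Sox17f/f, 0.992 to 0.993 within Sox17ed/ed and 0.963 to 0.965 between genotypes. *Sox17* itself read 12.21, 12.07 and 12.22 in the Sox17f/f mice and 9.75, 9.59 and 9.81 in the Sox17ed/ed mice. Its log2 fold change was -2.45 ± 0.09 (SE), with adjusted p = 2.66e-05 (limma, Benjamini-Hochberg), and its other probe gave -2.97. All 3 Sox17ed/ed arrays were below all 3 Sox17f/f arrays, as the labels say. Whether these probes lie inside the deleted part of the gene is not given in the sources used here.

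Of the 6 mucin genes tested, 4 rose in the Sox17ed/ed uterus and none fell. *Muc20*, *Muc5b*, *Muc4* and *Muc1* rose 23.5-fold, 5.94-fold, 5.37-fold and 3.59-fold, whereas *Muc13* and *Cd164* did not pass the test. The genes that rose include 3 membrane mucins and 1 gel-forming mucin. A gene was called when its unadjusted limma p was under 0.01 and its fold change was at least 1.4, the thresholds of the study's methods. Over all 14847 genes tested, 12.5% were called, 6.04% higher and 6.47% lower in Sox17ed/ed uteri. The same 4 mucin genes also had an adjusted p under 0.05, against 18.9% of all genes. Their arrays did not overlap between the genotypes, which was so for 40.6% of all genes. The members and the related lists below were chosen with earlier results of these data known. Their shares are therefore descriptions and no independent evidence. In whole uterus, a larger number of cells making a mucin and more RNA per cell cannot be told apart.

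**Figure D1:**
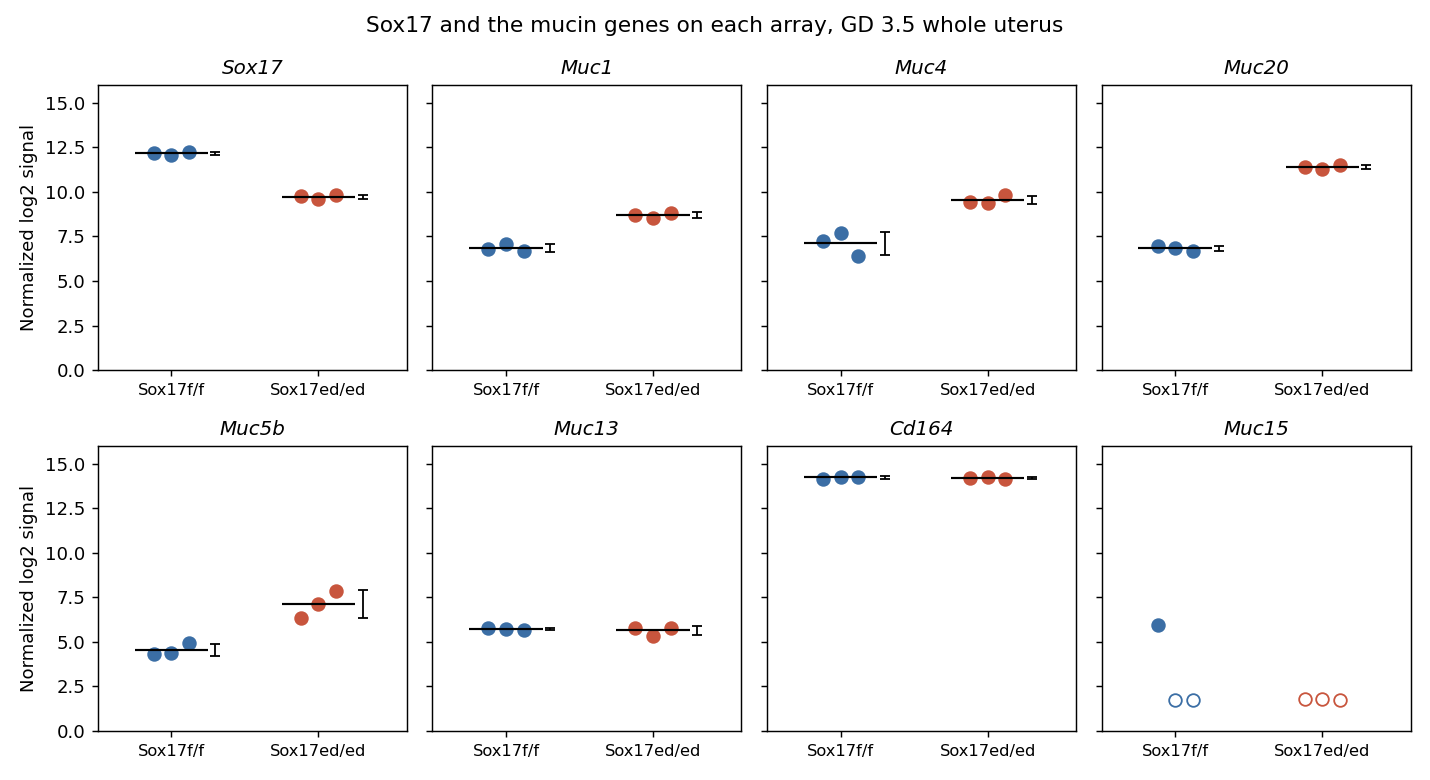
Normalized log2 signal (y axis) of *Sox17* and 7 mucin genes on the 3 Sox17f/f and 3 Sox17ed/ed arrays, 1 point per mouse, with the group mean (line) and SD (bar). Open points were not well above background, and no mean is drawn for *Muc15*. The genotypes lie apart for *Sox17*, *Muc1*, *Muc4*, *Muc20* and *Muc5b* and overlap for *Muc13* and *Cd164*.

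*Muc20* encodes a small membrane mucin that binds the hepatocyte growth factor receptor MET. Its signal was 6.97, 6.86 and 6.67 in the Sox17f/f mice and 11.38, 11.27 and 11.52 in the Sox17ed/ed mice. The arrays within a genotype differed little, and the lowest Sox17ed/ed array stood 4.30 above the highest Sox17f/f array. The group means were 6.83 ± 0.15 and 11.39 ± 0.13 (SD, n = 3 each), a log2 fold change of 4.55 ± 0.11 (SE) with a 95% interval of 4.29 to 4.81. The adjusted p was 9.22e-06 (limma), and *Muc20* ranked 9 among all genes tested when ordered by p. An exact permutation test gave p = 0.1 (two-sided), the smallest that 3 arrays against 3 allow, as it did for each of the other 3 mucin genes that rose.

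The array holds a second *Muc20* probe, designed on another RefSeq transcript. It read 3.34, 2.69 and 2.16 in the Sox17f/f mice and 6.32, 6.04 and 6.40 in the Sox17ed/ed mice. No Sox17f/f array was well above background for this probe, so its change is given as a bound. The controls were set no lower than a floor, the dimmest signal of any probe well above background on the array. Against that floor the probe was at least 6.20-fold higher in Sox17ed/ed uteri. A probe not well above background can lie above the floor, so this and later bounds are not strict limits. Both probes of *Muc20* read higher in all 3 Sox17ed/ed mice. The second probe, however, passed the filter on dim probes only through those arrays. Its direction is therefore no independent support for the first.

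*Muc4* encodes a large membrane mucin that associates with the receptor ERBB2. Its signal was 7.22, 7.71 and 6.40 in the Sox17f/f mice and 9.45, 9.36 and 9.81 in the Sox17ed/ed mice. The controls were the more variable group, with replicate 3 the lowest, and the genotypes were 1.64 apart at their nearest. The means were 7.11 ± 0.66 and 9.54 ± 0.24 (SD, n = 3 each), with a log2 fold change of 2.43 ± 0.33 (SE), a 95% interval of 1.62 to 3.23 and adjusted p = 0.00458 (limma). A dimmer *Muc4* probe read 2.81, 2.97 and 2.12 in the controls, none well above background, and 4.45, 5.90 and 5.12 in the Sox17ed/ed mice. That probe was at least 2.90-fold higher in Sox17ed/ed uteri. It too passed the filter on dim probes only through those arrays, so its direction is no independent support.

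*Muc1* encodes the membrane mucin best known from the luminal surface of the uterus. Its signal was 6.81, 7.07 and 6.68 in the Sox17f/f mice and 8.73, 8.51 and 8.84 in the Sox17ed/ed mice. Every Sox17ed/ed array was at least 1.44 above every control. The means were 6.85 ± 0.20 and 8.70 ± 0.17 (SD, n = 3 each), and the log2 fold change was 1.84 ± 0.13 (SE), with a 95% interval of 1.52 to 2.16 and adjusted p = 0.000351 (limma).

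*Muc5b* encodes a gel-forming mucin of airway and cervical mucus. Its signal was 4.33, 4.37 and 4.93 in the Sox17f/f mice, close to the dimmest signals well above background, and 6.34, 7.13 and 7.87 in the Sox17ed/ed mice. Here the Sox17ed/ed mice were spread more widely than the controls, although the genotypes still stood 1.41 apart. The means were 4.54 ± 0.33 and 7.11 ± 0.77 (SD, n = 3 each), giving a log2 fold change of 2.57 ± 0.39 (SE), a 95% interval of 1.62 to 3.52 and adjusted p = 0.00692 (limma). With normexp background correction in place of the scanner's own, the log2 fold change of *Muc5b* was 1.33, still called.

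The other members gave no call. *Muc13*, a membrane mucin best known from the gut, read 5.78, 5.74 and 5.64 in the Sox17f/f mice and 5.80, 5.32 and 5.79 in the Sox17ed/ed mice. The genotypes overlapped, with a log2 fold change of -0.08 ± 0.14 (SE), a 95% interval of -0.43 to 0.26 and adjusted p = 0.726 (limma). *Cd164*, a sialomucin of endosomes and the cell surface also called endolyn, read 14.15, 14.25 and 14.26 in the controls and 14.20, 14.27 and 14.15 in the Sox17ed/ed mice. These groups overlapped too, with a log2 fold change of -0.01 ± 0.07 (SE), a 95% interval of -0.18 to 0.15 and adjusted p = 0.918 (limma).

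The *Muc15* probe, for another membrane mucin, was well above background on 1 array and so was not tested. It read 5.97 in Sox17f/f replicate 1, against 1.73 and 1.76 in the other controls and 1.82, 1.79 and 1.71 in the Sox17ed/ed mice. The single high value was thus in a control mouse, and the other 5 arrays were not well above background.

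**Figure D2:**
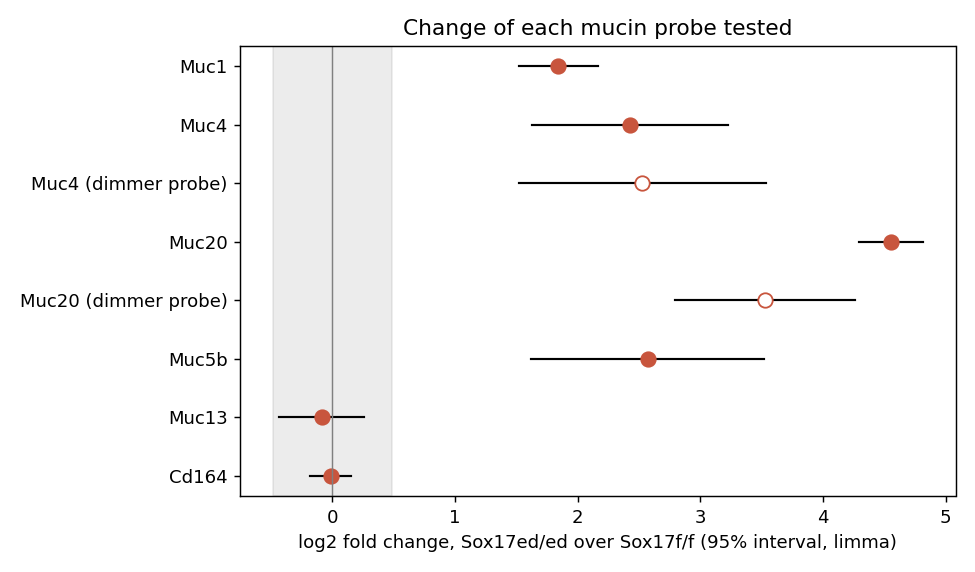
Log2 fold change, Sox17ed/ed over Sox17f/f (x axis), of each mucin probe tested, with its 95% interval from limma. Open points are dimmer probes that no control array measured well above background, drawn at their fitted values and not at their bounds. The grey band spans fold changes under 1.4. The interval of the brighter *Muc20* probe lies above those of *Muc1*, *Muc4* and *Muc5b*. That of its dimmer probe overlaps *Muc4* and *Muc5b*, and those of *Muc13* and *Cd164* lie in the band.

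Among the genes that rose, the 95% interval of the brighter *Muc20* probe (4.29 to 4.81) lay above those of *Muc5b*, *Muc4* and *Muc1*, whose intervals overlapped one another. The interval of the dimmer *Muc20* probe, for which no control was measured, overlapped those of *Muc5b* and *Muc4*. In the Sox17ed/ed group, replicate 3 had the highest signal for all 4 genes. In the controls the genes did not share an order, since replicate 3 was the lowest for *Muc4*, *Muc20* and *Muc1* but the highest for *Muc5b*.

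Epithelial RNA was compared in the same arrays, because mucins coat the epithelial surface and the samples were whole uterus. Which cells gave the signal of each member, *Cd164* included, was not measured. All 10 epithelial markers listed were tested, and 4 rose, namely *Krt19* (log2 fold change 2.10), *Krt7* (1.46), *Krt8* (0.69) and *Cdh1* (0.59), whereas *Cldn3* fell (-1.16). That is 50% called beside 12.5% of all genes. Of the markers not called, *Krt18* (-0.16), *Cldn4* (-0.34) and *Esrp1* (-0.06) read lower, and *Elf3* (0.61) and *Epcam* (0.10) higher. Keratins 7, 8 and 19 are filament proteins of simple epithelia, and *Cdh1* and *Cldn3* encode junction proteins. The mean of the 10 markers ranged from 10.50 to 10.67 in the Sox17f/f mice and from 10.78 to 11.09 in the Sox17ed/ed mice, a shift of 0.38. Taken relative to that mean on each array, the genotype difference was 4.17 for *Muc20*, 2.19 for *Muc5b*, 2.04 for *Muc4* and 1.46 for *Muc1*. On the same footing it was -0.47 for *Muc13* and -0.40 for *Cd164*. Because the marker mean rose by 0.38, a gene of unchanged signal falls by that much on this footing. The genotypes overlapped for *Muc13* and *Cd164* before this step and did not after it, so that separation comes with the subtraction. These relative values are descriptions and were not tested. The call of *Krt8* was lost when any 1 array other than Sox17ed/ed replicate 2 was left out, with values of 0.57 to 0.72.

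Markers of other cells that a uterine sample can hold were read beside the mucins, and their part in the mucin changes was not tested. None of 8 endometrial stroma genes or 7 leukocyte genes tested was called. Of 7 smooth muscle genes, *Actg2* fell (-0.64), which is 14.3% called. Of 8 endothelial genes, *Cldn5* rose (0.52), and *Vwf* (-0.84) and *Esam* (-0.57) fell, which is 37.5% called. Over all genes, 12.5% were called. The mean level of stroma was 15.11 to 15.21 in controls and 15.04 to 15.19 in Sox17ed/ed mice, that of smooth muscle 15.21 to 15.39 and 14.87 to 15.12, that of endothelium 10.78 to 10.95 and 10.53 to 10.56, and that of leukocytes 11.04 to 11.13 and 11.15 to 11.22. *Cldn5* was no longer called without Sox17f/f replicate 2 (0.45), without Sox17ed/ed replicate 3 (0.47), after a 75th percentile shift (0.48) or with normexp (0.47). *Vwf* lost its call in the ordinary linear model, with the same value.

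Of the 7 oviduct genes listed, 6 were tested, and 50% of those were called, beside 12.5% of all genes. *Foxj1*, a regulator of motile cilia, rose (2.44), with 1 of 3 control arrays well above background, whereas *Ovgp1* (-2.92) and the dynein gene *Dnah5* (-2.82, with 1 of 3 Sox17ed/ed arrays well above background) fell. The mean of these oviduct genes was 7.66 to 7.90 in controls and 7.09 to 7.33 in Sox17ed/ed mice. Of 9 stratified squamous genes, 5 were tested and *Krt5* rose, with no control array well above background, while *Krt4*, *Krt6a*, *Dsg3* and *Krtdap* were too dim to test. The other genes tested, *Krt13* (0.06), *Krt14* (0.30), *Trp63* (-0.12) and *Sbsn* (0.05), were not called and overlapped between the genotypes. The mean of the tested squamous genes was 6.92 to 7.07 in controls and 7.26 to 8.13 in Sox17ed/ed mice. Their median log2 fold change was 0.06, and 20% were called, beside 12.5% of all genes. *Krt5*, which passed the filter only through the Sox17ed/ed arrays, was at least 5.25-fold higher there. It read highest in Sox17ed/ed replicate 1 (7.80, against 4.94 and 5.33), and the bound was 2.83-fold without that array. The gene was not called when any 1 control or Sox17ed/ed replicate 3 was left out. With normexp the values were 0.70 for *Foxj1* and -1.06 for *Dnah5*, both called, and *Krt5* was not called. *Dnah5* was -2.22 without Sox17ed/ed replicate 2 and lost its call in the ordinary linear model.

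Small lists for neighbouring tissues were read in the same way. The share called was 50% for mesothelium and 33.3% for pancreas, beside 12.5% of all genes, but each list held 4 tested genes or fewer. Of 4 mesothelial genes tested, *Upk3b* rose (1.56) and *Lrrn4* was lower by at least 1.86-fold, with none of the Sox17ed/ed arrays clearly over background, and *Bnc1* was too dim to test. None of 3 ovarian genes or 3 adipocyte genes was called, and *Amh*, *Cyp19a1*, *Zp3*, *Cidec* and *Plin1* were too dim. Of 3 pancreatic genes *Cpa1* fell (-1.23), and *Cela2a* and *Pnlip* were too dim. With normexp *Upk3b* was 0.80, and *Lrrn4* (-0.30) and *Cpa1* (-0.46) were not called. The list means in controls and Sox17ed/ed mice were 5.91 to 6.24 and 5.89 to 6.37 for mesothelium, 6.49 to 6.89 and 6.68 to 6.85 for ovary, 4.25 to 5.31 and 4.47 to 6.06 for adipocytes, and 5.80 to 6.04 and 5.52 to 5.78 for pancreas.

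Other mucins and mucin-like proteins did not move as one. Of 22 genes listed, 16 had a matched probe and 13 were tested: 2 rose, 3 fell and 8 did not pass, which is 38.5% called beside 12.5% of all genes. The median log2 fold change was 0.09 and the mean -0.12, beside medians of 2.13 over the 6 tested mucin members and -0.0016 over all genes.

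*Cd24a*, a small cell-surface sialoglycoprotein, read 12.66, 12.66 and 12.56 in the controls and 13.59, 13.45 and 13.75 in the Sox17ed/ed mice, a log2 fold change of 0.97 ± 0.09 (SE) with adjusted p = 0.00110 (limma). *Parm1*, an androgen-regulated mucin-like membrane protein, rose by 0.71 ± 0.11 (SE). Among those that fell was *Ovgp1*, the oviductal mucin-like glycoprotein, which read 10.71, 11.19 and 10.34 in controls and 7.69, 7.75 and 8.04 in Sox17ed/ed mice. This gene stands in the oviduct list as well, and its log2 fold change was -2.92 ± 0.22 (SE), with adjusted p = 0.000422 (limma). The mucin-type membrane proteins *Pdpn* (-0.72 ± 0.09, SE) and *Podxl* (-0.51 ± 0.09, SE) fell less, and a second *Pdpn* probe (-0.67) was not called. *Podxl* was not called with normexp (-0.34), without Sox17f/f replicate 3 (-0.47) or without Sox17ed/ed replicate 2 (-0.44).

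The gel-forming mucin *Muc5ac*, named here because it lies next to *Muc5b* on chromosome 7, read 4.33, 4.32 and 3.48 in the controls and 4.35, 3.92 and 4.70 in the Sox17ed/ed mice. The genotypes overlapped, and only 1 Sox17ed/ed array was well above background, with a log2 fold change of 0.28 ± 0.29 (SE) and adjusted p = 0.547 (limma). *Muc2*, another gel-forming mucin of that cluster, was too dim to test.

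O-glycosylation of mucins starts with a family of GalNAc transferases, is extended by the core enzymes *C1galt1* and *Gcnt1*, and is capped by sialyltransferases. Of 38 genes of this pathway, 34 were tested: 5 rose, 5 fell and 24 did not pass, which is 29.4% called beside 12.5% of all genes. The median log2 fold change was -0.14 and the mean 0.01, and the median was the same with the 2 genes that have only a bound set at it.

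*Galnt9*, an initiating transferase, read 2.22, 2.22 and 3.69 in the controls, none well above background, and 8.92, 8.77 and 8.86 in the Sox17ed/ed mice. It was thus at least 33.4-fold higher in Sox17ed/ed uteri, and it passed the filter on dim probes only through those arrays. *St6galnac2*, a sialyltransferase, rose by 1.52 ± 0.13 (SE), and *Galnt3*, another initiating transferase, by 1.01 ± 0.15 (SE). The other 2 genes that rose were *Galnt12* (1.003) and *Galnt5* (0.78), named after their values were seen. With normexp, which adds an offset to dim signals, the log2 fold change of *Galnt9* was 2.65, below that bound and still called, and *Galnt5* was no longer called (0.36).

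*Gcnt1*, which builds the core 2 branch, read 10.87, 10.98 and 10.70 in the controls and 8.98, 9.23 and 9.36 in the Sox17ed/ed mice. The genotypes did not overlap, and its log2 fold change was -1.66 ± 0.12 (SE), adjusted p = 0.000408 (limma), with -1.37 from a second probe. *C1galt1*, the core 1 synthase, fell by 0.92 ± 0.09 (SE) on the log2 scale. *St6galnac5*, a sialyltransferase, was not well above background on any Sox17ed/ed array and was at least 3.82-fold lower there. The other 2 that fell were *St3gal4* (-0.71) and *Galnt1* (-0.51), also named after their values were seen. With normexp *St6galnac5* was -0.93, still called and smaller than its bound, whereas *Galnt1* was not called (-0.35), nor was it without Sox17f/f replicate 2 (-0.44) or without Sox17ed/ed replicate 2 (-0.45).

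Genes of mucus secretion moved in both directions. Of 20 listed, 10 were tested, and 2 rose, 5 fell and 3 did not pass. Over all genes, 6.04% were called higher and 6.47% lower. The median log2 fold change was -0.42 while the mean was 0.71, so the median and mean differ in sign.

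*Clca1*, a protease secreted by goblet cells, read 3.92, 2.41 and 3.79 in the controls, of which 1 array was well above background, and 14.35, 13.96 and 14.61 in the Sox17ed/ed mice. The genotypes did not overlap. The fitted log2 fold change was 10.94, or 8.14 with normexp, and its size is uncertain because it rests on controls of which 1 was measured. *Fcgbp*, a mucus protein that binds gel-forming mucins, read 9.88, 9.70 and 10.02 in controls and 13.99, 13.78 and 13.72 in Sox17ed/ed mice, a log2 fold change of 3.96 ± 0.11 (SE) with adjusted p = 1.47e-05 (limma).

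The genes of the same list that fell include transcription factors and processing proteins of secretory cells. *Spdef*, a transcription factor of goblet cells, read 8.92, 8.58 and 8.38 in controls and 6.15, 6.29 and 6.67 in Sox17ed/ed mice, with a log2 fold change of -2.26 ± 0.19 (SE) and adjusted p = 0.000571 (limma). *Bpifb1*, a secreted airway protein, changed by -2.47 ± 0.35 (SE), and *Atp2c2*, a Golgi calcium pump, by -1.69 ± 0.27 (SE). For both, 2 of the 3 Sox17ed/ed arrays were well above background. *Creb3l4* (-0.54) and the mucin disulfide isomerase *Agr2* (-0.50), named after their values were seen, also fell. With normexp *Bpifb1* was -1.04 and *Atp2c2* -0.56, both called, and *Creb3l4* (-0.45) and *Agr2* (-0.47) were not. *Creb3l4* also lost its call without Sox17f/f replicate 1 (-0.46), and *Agr2* lost it without Sox17f/f replicate 2 or 3 or Sox17ed/ed replicate 2 or 3 (-0.48 to -0.45).

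**Figure D3:**
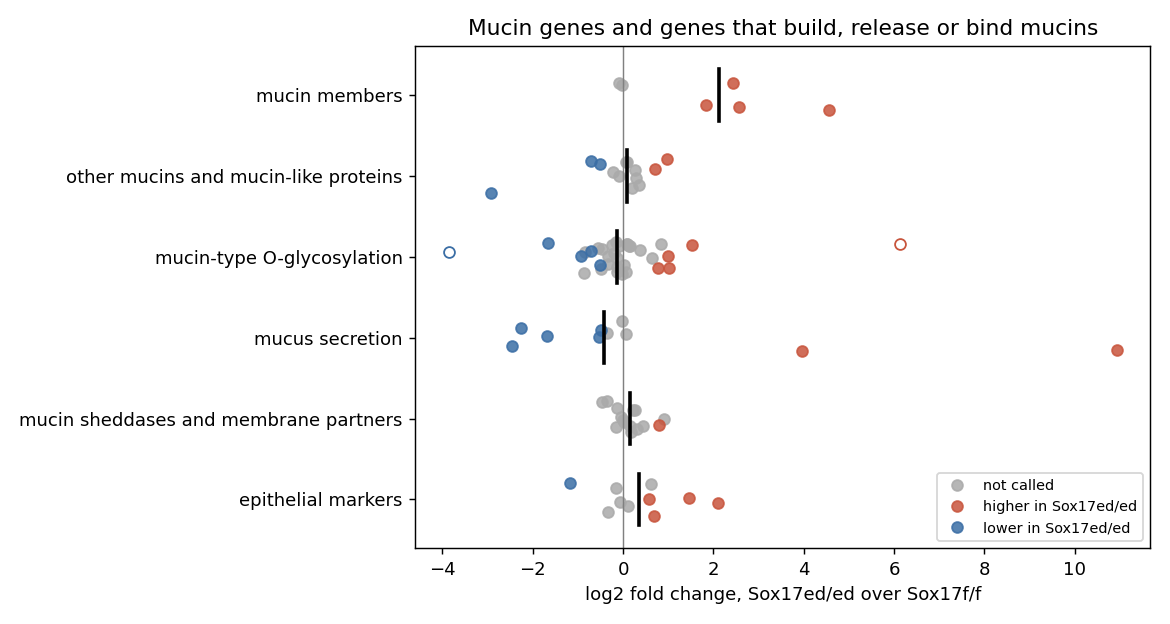
Log2 fold change, Sox17ed/ed over Sox17f/f (x axis), of each tested gene in the mucin group, the related lists and the epithelial markers, 1 point per gene, with the list median as a black bar. Open points are genes for which 1 genotype had no array well above background; the median is 2.13 for the mucin members and between -0.42 and 0.34 for the other lists.

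Proteases that shed membrane mucins and the receptors and adaptors that bind them gave few calls. Of 16 genes, 15 were tested, 1 rose and none fell, which is 6.67% called beside 12.5% of all genes. The genotypes did not overlap for 10 of the 15, beside 40.6% of all genes. The median log2 fold change was 0.16. The gene that rose was the protease *Adam8* (9.88, 10.21 and 9.79 in controls, 10.67, 10.76 and 10.87 in Sox17ed/ed mice), by 0.80 ± 0.13 (SE) with adjusted p = 0.00770 (limma). The number that rose was 2 without Sox17f/f replicate 3 or without Sox17ed/ed replicate 1, and 1 gene fell without Sox17f/f replicate 2 or without Sox17ed/ed replicate 1.

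The receptors known to bind members of the group were picked out after their values were seen. *Erbb2*, the partner of *Muc4*, had a log2 fold change of 0.17 ± 0.07 (SE) and adjusted p = 0.132 (limma). For *Met*, the partner of *Muc20*, these were 0.21 ± 0.08 (SE) and 0.118. *Cxcr4*, with which *Cd164* associates, had 0.45 ± 0.13 (SE) and 0.0566. None of these receptors was called. The Sox17ed/ed arrays were all above the controls for each, in a data set where 40.6% of all genes did not overlap in 1 direction or the other. *Cxcr4* was called without Sox17f/f replicate 3 (0.53) or without Sox17ed/ed replicate 1 (0.56).

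*Muc4* and *Muc20* lie beside each other on chromosome 16, where their gene models overlap on opposite strands. The sources used here do not give where in each gene the probes lie, so whether they share signal was not tested. The 5 protein-coding genes on either side of each of the 4 mucins that rose hold 24 tested genes that are not members. None of them rose and 2 fell, in a data set where 6.04% of all genes were called higher and 6.47% lower. Those 2 were *Tfrc* (-0.61), near *Muc4* and *Muc20*, and *Dusp8* (-0.80), near *Muc5b*. *Tfrc* lost its call when any 1 array other than Sox17f/f replicate 3 was left out (-0.65 to -0.48), and *Dusp8* lost it with normexp (-0.47). Other *Tfrc* probes gave -0.65 and -0.07, neither called. The median absolute log2 fold change of the 24 neighbours was 0.12, beside 0.17 over all genes. Around *Muc1*, all 10 neighbours were tested and none was called.

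**Figure D4:**
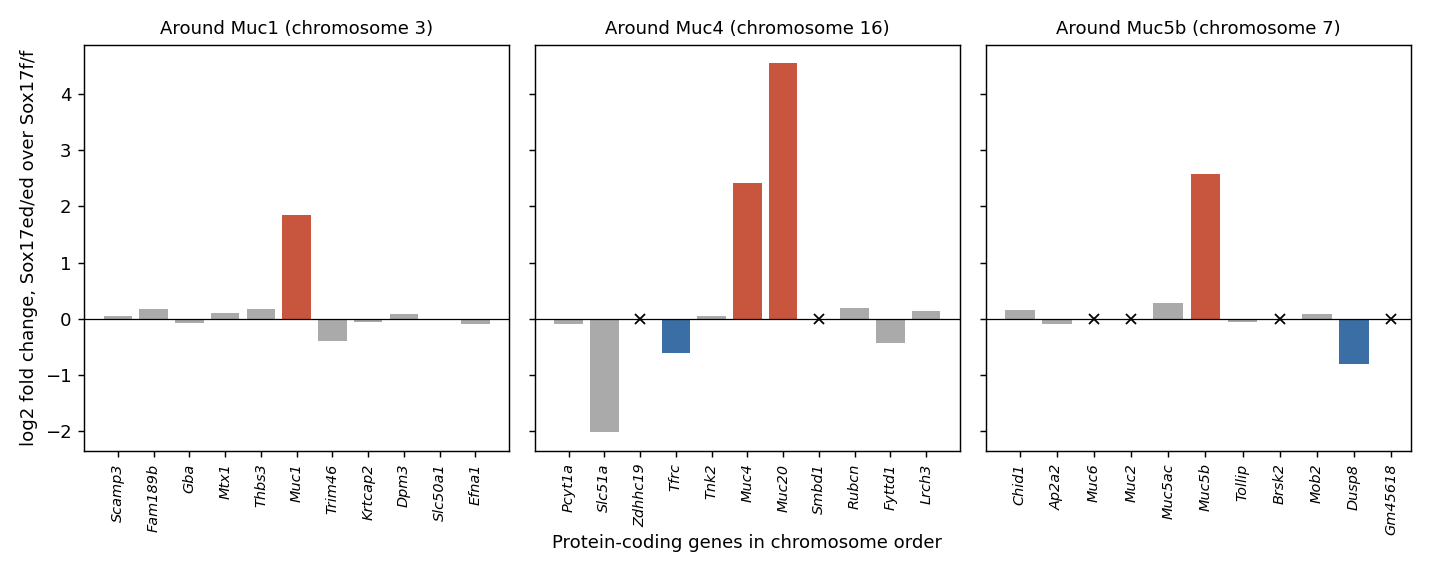
Log2 fold change, Sox17ed/ed over Sox17f/f (y axis), of the 5 protein-coding genes on either side of *Muc1*, *Muc4* and *Muc5b*, in chromosome order (x axis, not to scale). Red bars were called higher, blue bars lower, grey bars were not called, and crosses mark genes not tested; the mucins are the only red bars in each panel.

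The genes whose signal followed *Muc1* most closely were sought by the root-mean-square difference over the 6 arrays, after each gene was centred on its own mean. Of 14846 genes compared, the nearest were *Tmem171* (0.09), *Macc1* (0.10) and *Wfdc6a* (0.11). For *Muc4* they were *Foxj1* (0.17), *Zbtb32* (0.17) and *Ascl4* (0.20). Their log2 fold changes were 1.92, 1.75 and 1.89, and 2.44, 2.30 and 2.16 in the same order. Likeness over 6 arrays rests mainly on the difference between the genotypes and is given as a description. For *Foxj1* only 1 of 3 control arrays was well above background. With normexp its log2 fold change was 0.70, against 1.94 for *Muc4*.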

How the data were processed

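RNA of whole uteri was hybridised, for each mouse separately, to a 1-colour Agilent G3 Mouse GE array, with 3 mice per genotype as the labels give it. The authors deposited the scanner's spot intensity, which the file headers credit to Feature Extraction 11.0.1.1 and the labels to 9.1, and a table of processed values, which lay within 0.00502% in the median of the processed signal here. The processed signal has background and spatial trends removed and is not normalized between arrays. Subtracting background makes dim values uncertain on a log scale.

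The members and lists were chosen with earlier results of these data known. Log2 signals were quantile normalized, control and flagged spots left out, and spots averaged to probes. A probe was tested if 3 or more of the 6 arrays were well above background. Of 55681 probes, 26582 matched 20145 genes by accession in the RefSeq table of GRCm38.p6, and the brightest probe stood for a gene. The array design is annotated on mm9, so probe positions were not used. Genotypes were compared with limma 3.58.1 (R 4.3.3), and p-values of all genes were adjusted by Benjamini-Hochberg. A probe that no array of a genotype measured well above background is given as a bound, against the dimmest signal well above background. Such a bound is not a strict limit, since a probe not well above background can lie above that signal. With 3 arrays a group, their number limits the precision. The fit was tested on simulated data. Promoters and plots used Python 3.11.15, pandas 2.3.3 and matplotlib 3.10.9.

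All members, *Sox17*, the 3 highest and 3 lowest called genes of each list, and the 3 genes most like *Muc1* and *Muc4* were named by rule, and marker genes where called. Alternatives were a 75th percentile shift, normexp with an offset of 50, other filters on dim probes, the mean or another probe of a gene, an intensity trend, the deposited processed values, a model without moderation, a block for the replicate number, a fold of 2, adjusted p under 0.05, and leaving out each array.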

Additional observations from a re-analysis of the deposited data

How the results depend on the processing

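*Muc1*, *Muc4*, *Muc20* and *Muc5b* were called higher, and no member lower, under all 17 alternatives. Some of these could hardly change the calls. A fold of 2 lies under the fold changes of all 4, and the deposited values are nearly the processed signal itself. *Muc1* and *Muc5b* have 1 probe each, so the mean of probes left their values unchanged, as did the filters. Apart from the dimmer *Muc20* probe, the lowest log2 fold changes were 1.38 for *Muc1*, 1.94 for *Muc4*, 1.33 for *Muc5b* and 3.98 for *Muc20*, each with normexp. The highest were 1.95, 2.73, 2.96 and 4.62 in that order, each without 1 array. The dimmer *Muc20* probe had a fitted value of 3.52, whose size is uncertain because no control array was well above background. The sign turned for members that were not called. *Muc13* was 0.074 without Sox17ed/ed replicate 2, and *Cd164* was 0.0078 without Sox17f/f replicate 3 and 0.016 without Sox17ed/ed replicate 3. With all arrays but one, *Muc13* ranged from -0.17 to 0.074 and *Cd164* from -0.046 to 0.016.

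Counts in the related lists moved more. At a fold of 2, other mucins had 0 higher and 1 lower, O-glycosylation 2 lower, mucus secretion 3 lower and sheddases and partners 0 higher. At adjusted p under 0.05, O-glycosylation had 8 lower and sheddases and partners 2 lower. With the filter raised to 6 of 6 arrays, mucus secretion had 1 higher and 3 lower. With normexp it had 3 lower, and sheddases and partners had 1 lower. Leaving out 1 array gave 1 to 2 higher and 0 to 1 lower among sheddases and partners. The planned normexp on mean signal was not run, since the scanner columns hold median signal; the median was used instead, a choice made after seeing the data.

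Replicate numbers did not pair the mice: deviations of same-numbered arrays correlated at 0.06, -0.11 and -9.52e-05. With the replicate block, 4 members were called higher and 0 lower, *Muc20* stayed at 4.55, and 1796 genes were called in all, against 1857; *Krt8*, *Krt5* and *Tfrc* were then not called, with unchanged values. Signals near background limit *Muc5b*, *Muc15* and the dimmer probes.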
